A study of Homo sapiens with 8 samples.

Results

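Depletion of PHF13 was examined in resting Panc-1 cells, that is, without added TGFβ. Panc-1 is a human cell line from a ductal carcinoma of the pancreas. The comparison takes 4 of the 8 mRNA-seq libraries of the series: 2 of cells transfected with a non-targeting siRNA (siNC) and 2 of cells transfected with siRNA against *PHF13* (siPHF13). The labels name no single siRNA, so effects of the siRNA on other genes cannot be told apart from loss of PHF13. They were selected by their labels alone, as the libraries that received no TGFβ. The other 4 libraries come from siNC and siPHF13 cells after 48 h with 10 ng/ml TGFβ. All cells carried some siRNA and no untransfected library was included, so the siNC level is itself that of transfected cells. The knockdown was transient and partial, and the libraries hold polyadenylated RNA only.

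PHF13 is a nuclear protein with a plant homeodomain (PHD) finger that binds histone H3 carrying methyl groups on lysine 4, a mark of active and poised promoters. It can act as a co-regulator of transcription, and it has been linked to chromatin compaction, the repair of DNA breaks and mitosis. Panc-1 cells grow in a partly mesenchymal state, in which epithelial and mesenchymal genes are transcribed side by side. The question here was which functions and gene families rose and fell with the loss of PHF13, beyond the markers of epithelial-mesenchymal transition (EMT) and the interferon genes.

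The target was reduced as labelled. *PHF13* itself measured 1804 and 1662 normalized counts with siNC but 524.2 and 558.3 with siPHF13 (log2 fold change -1.68 ± 0.09 SE, adjusted p = 1.52e-08 from limma). A normalized count is the number of reads on a gene divided by a size factor of its library, so that values of a gene can be compared between libraries but not between genes of different length. Between 41921473 and 46700806 reads fell on the 13307 genes in these 4 libraries. The absolute log2 difference between the 2 libraries of a group had a median over genes of 0.0722 in siNC and 0.1041 in siPHF13. Of the ductal markers, *KRT8* (95780 to 120000 normalized counts over the 4 libraries), *KRT18*, *KRT19* and *KRT7* were all present, as was *VIM* (160300 to 168700). Among the other ductal markers, *SOX9* was lower with siPHF13 (4696 and 4609 in siNC, 2551 and 2738 in siPHF13 libraries). *MUC1* was present too (810.0 and 747.8 against 955.9 and 1102). The markers chosen for acinar (0 of 5), endocrine (0 of 4) and endothelial cells (0 of 3) were not in the table, nor was the hepatocyte marker *ALB*. Of the 5 blood markers only *CD68* was (7360 and 7236 in siNC, 11900 and 13050 in siPHF13 libraries), whose product is also a lysosomal protein of many cells, and of the 6 fibroblast markers *PDGFRB* and *ACTA2* stayed under 50 normalized counts while *COL1A1* was abundant. In bulk RNA, fewer cells of a kind and less RNA per cell cannot be told apart. The labels do not say that the 2 libraries of a group came from separate cultures, so the p-values measure the spread between these libraries.

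A gene was called when its adjusted p was under 0.05 and its absolute log2 fold change over 0.58, in a limma fit of log2(normalized count + 1). In siPHF13 cells 1058 genes (7.95% of those tested) were called higher and 1390 (10.4%) lower, 18.4% in either direction. These shares are the background against which each gene list below is read. They varied with level, at 10.6% higher and 15.4% lower in the lowest of 5 equal groups of genes by mean normalized count. In the highest group they were 4.95% and 7.0%. The lists were not matched for level, and the part of level in their shares was not tested. The median log2 fold change of all genes was -9e-04. Lists of families and pathways covered 5888 genes, 1127 of them called. Of the 122 lists with at least 5 measured members, 21 had a share of higher members at least 1.5 times the background, 30 a share of lower members of that kind, 11 both and 60 neither. The chart of list shares gives those above the background that are reported here.

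**Figure D1:**
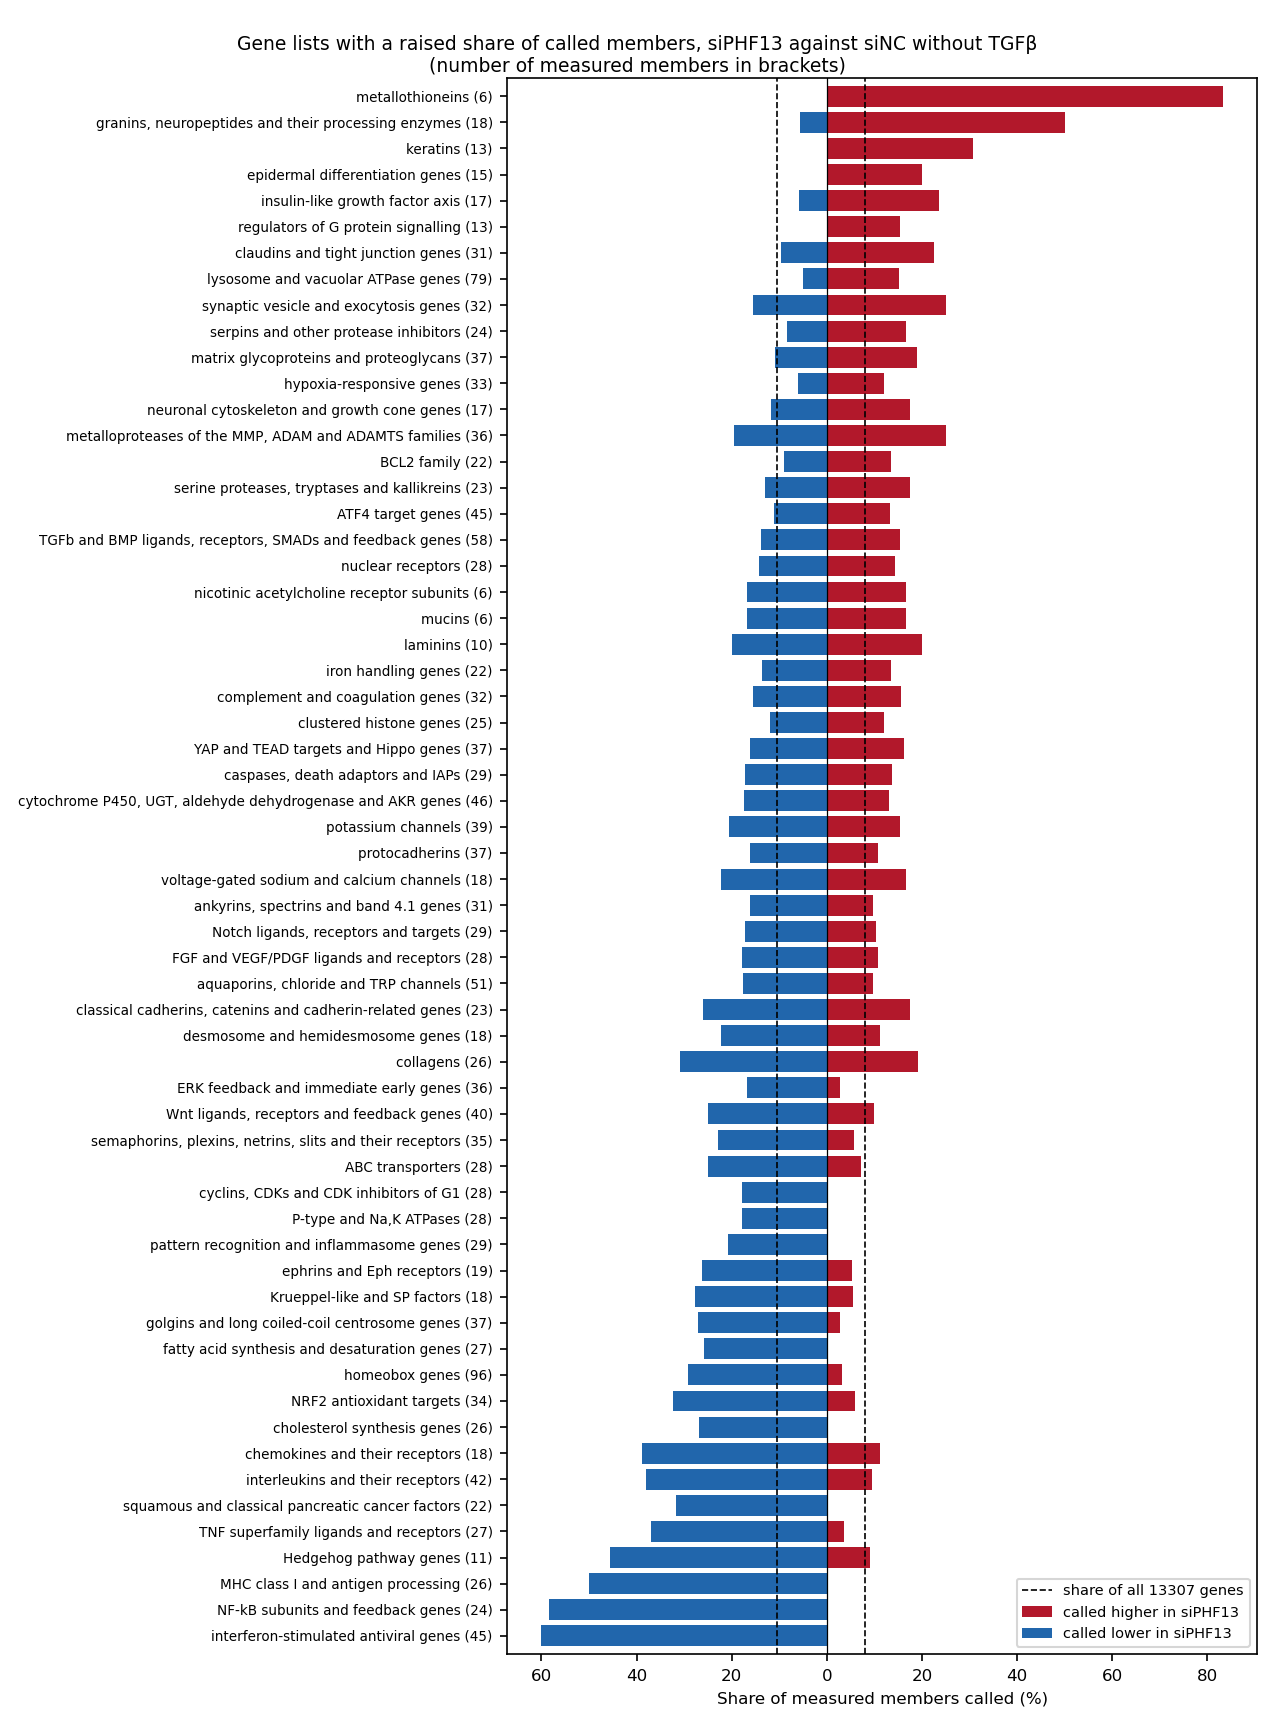
Share of the measured members of each gene list that was called higher (red, to the right) or lower (blue, to the left) in siPHF13 against siNC cells without TGFβ, in percent, with the share of all 13307 genes as dashed lines. Metallothioneins (83.3% higher) and granins and neuropeptides (50% higher) stand at the top, and NF-kB genes (58.3% lower), MHC class I genes (50% lower) and Hedgehog genes (45.5% lower) near the bottom, next to the interferon-stimulated genes.

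Genes of secretory granules and synaptic vesicles were among the largest rises. These genes normally serve regulated release of peptides and transmitters in neurons and endocrine cells. Among the 15 largest rises, taken over genes that averaged 100 normalized counts or more, were *VGF* and *SCG2* of the granin list and *SV2A*, *BSN* and *SYT5* of the synaptic vesicle list. *CHRNB2*, *TTC9B*, *SNCB*, *CAMK2A* and *RUNDC3A*, best known from neurons, were among them too but belong to neither list. The neuropeptide precursor *VGF* went from 664.9 and 646.0 normalized counts in siNC to 5974 and 6442 in siPHF13 libraries (log2 fold change 3.24 ± 0.10 SE, limma adjusted p = 2e-10). *SCG2*, secretogranin II of dense-core granules, was read at 188.7 and 207.2 against 1458 and 1761 (3.01 ± 0.18). *CHGB*, chromogranin B, had 113.8 and 114.4 against 295.4 and 308.8. Both siPHF13 libraries lay above both siNC libraries for each of these granule proteins, which by itself is common, since the 2 groups did not overlap in 77.3% of all genes. Of 18 measured granins, neuropeptides and processing enzymes, 9 were called higher (50%) and 1 lower (5.56%), with a list median of 0.84 (0.55 without siPHF13 replicate 1). The others called higher were *SCG3*, *CRH*, *PCSK1N* and *SCG5*, which also belong to the granule pathway or its cargo, and the hormones *EDN1* (endothelin 1, 376.5 and 311.7 against 917.1 and 1064) and *STC1* (411.6 and 403.7 against 812.6 and 795.1). The neuropeptide *GAL* was the member that fell (254.2 and 226.2 against 141.2 and 100.6). *SCG3* had 2.845 and 8.109 normalized counts in siNC and 121.3 and 138.1 in siPHF13 libraries, and *CRH* was close to 1 in both siNC libraries, so that no fold is given for it.

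The synaptic vesicle list moved in both directions, with 8 of 32 members higher (25%) and 5 lower (15.6%). *SV2A*, a glycoprotein of the vesicle membrane, had 176.4 and 168.5 normalized counts with siNC and 1051 and 1269 with siPHF13 (log2 fold change 2.74 ± 0.12). *BSN*, bassoon, a scaffold of the presynaptic release site, had 92.95 and 109.0 against 674.4 and 663.9 (2.72 ± 0.19). *SYP*, the vesicle protein synaptophysin, had 347.1 and 411.8 against 1505 and 1334 (1.90 ± 0.11). The calcium sensor *SYT5* (2.44 ± 0.18) and the SNARE-binding *CPLX1* (1.41 ± 0.18) rose too, as did *SNAP25*, which was low in siNC (8.536 and 12.61 against 89.52 and 85.82). Other release genes fell, among them the priming factor *UNC13A* (327.2 and 344.2 against 111.4 and 134.2, -1.45 ± 0.21), the calcium sensor *SYT1* (793.9 and 845.1 against 406.8 and 399.5, -1.02 ± 0.12) and the small GTPase *RAB3B* (-0.85 ± 0.11). The lower count of this list was 3 without siControl replicate 1 or without siControl replicate 2. The largest rise of all in this rule was that of *CHRNB2*, a subunit of the neuronal nicotinic acetylcholine receptor, with 17.07 and 16.22 against 344.1 and 403.5 normalized counts (4.40 ± 0.25), while the subunit *CHRNA7* fell (82.52 and 91.9 against 29.84 and 15.78). Of 17 genes of the neuronal cytoskeleton, *MAP2* (240.9 and 314.5 against 863.4 and 1114), *STMN3* and *INA* rose and *L1CAM* and *MAP1A* fell. Ion channels were split, with 6 potassium channels higher and 8 lower of 39, where *KCNK3*, a background potassium channel, led the rises (187.8 and 187.4 against 805.7 and 858.2, 2.14 ± 0.11). Without siPHF13 replicate 2 the 6 became 3, and without siControl replicate 1 the 8 became 4. Of 17 glutamate, GABA and glycine receptors 2 rose and 2 fell, but the number higher was 1 without siControl replicate 1 or either siPHF13 library, and the number lower 0 without siControl replicate 2 and 1 without siControl replicate 1 or siPHF13 replicate 1.

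*REST* encodes the repressor that keeps many neuronal genes silent in other cells, through its partners *RCOR1*, *SIN3A* and histone deacetylases. It was looked up after the rises were seen. *REST* had 2118 and 1941 normalized counts with siNC and 1321 and 1394 with siPHF13, a log2 fold change of -0.579 ± 0.077 (limma adjusted p = 3.83e-05), just inside the fold threshold of 0.58, so it was not called. It passed when siControl replicate 2 or siPHF13 replicate 2 was left out. After TGFβ the log2 fold change of *REST* was -0.84. The promoters of the genes tested were searched for the paired sites that REST binds, spelled AGCACC and GGACAG with any 2 bases between them, on both strands of the window from 250 bases before to 50 after the annotated start (RefSeq, GRCh38.p14). A promoter was found for 10648 of the 13307 genes. The letters stood in 3 of 819 promoters of genes called higher (0.366%), 1 of 1084 called lower (0.0923%), 1 of 8745 not called (0.0114%) and 0.0586% of all 27305 promoters in the reference. The 3 were those of *TTC9B*, *SYN1* and *SCAMP5*, and such small counts are a description only. *TTC9B* had 229.5 and 238.8 against 1749 and 1763 normalized counts (log2 fold change 2.90 ± 0.13). *SYN1*, synapsin I, a well known target of the repressor, had 28.45 and 20.72 against 60.67 and 53.27 (1.19 ± 0.41), a call that was lost without siControl replicate 2 and without either siPHF13 library. Its 250 bases before the start, minus strand of chrX:47619858-47620107, are shown because they hold the paired sites, in capitals:
SYN1: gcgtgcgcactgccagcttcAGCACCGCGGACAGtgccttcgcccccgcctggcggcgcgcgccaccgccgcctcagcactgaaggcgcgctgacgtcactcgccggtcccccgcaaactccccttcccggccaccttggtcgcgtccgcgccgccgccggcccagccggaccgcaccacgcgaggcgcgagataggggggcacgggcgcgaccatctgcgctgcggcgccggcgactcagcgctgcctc

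A few keratins of hair and the enzymes that modify keratins rose. *KRT75*, a keratin of the hair follicle, had 40.78 and 31.54 normalized counts with siNC and 727.1 and 738.8 with siPHF13 (log2 fold change 4.32 ± 0.22, limma adjusted p = 7.4e-09). *KRT81* and *KRT86*, hair cortex keratins that are near copies of each other so that the division of reads between them is uncertain, had 32.25 and 15.32 against 164.1 and 239.7, and 42.68 and 35.14 against 167.1 and 178.5. With *KRT37*, which had 1.897 and 0 in siNC and 42.77 and 47.35 in siPHF13 libraries, 4 of 13 keratins were called higher (30.8%) and 0 lower, and the other 9, which included further keratins of skin and hair, were not called. The simple-epithelial keratins of the ductal cell did not follow: *KRT8* had a log2 fold change of -0.16, *KRT18* of -0.33, *KRT19* of 0.25 and *KRT7* of -0.02, none of them called. Of 15 genes of epidermal differentiation 3 rose (20%), while 9 lay below 0 and the list median was -0.23 (0.03 without siPHF13 replicate 1). The 3 were peptidylarginine deiminases, which turn arginine into citrulline in keratins and histones. *PADI1* had 47.42 and 63.07 against 746.0 and 932.2 (3.91 ± 0.21), and *PADI2*, abundant in siNC already, 6741 and 6742 against 13770 and 17300 (1.20 ± 0.09). *PADI3* was the third.

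Genes of cell junctions were called in both directions. Of 31 claudins and tight junction genes 7 were higher (22.6%) and 3 lower (9.68%), while 19 lay below 0 and the median was -0.14. All 7 were claudins, the membrane proteins that set the tightness of the paracellular seal. *CLDN3* had 135.6 and 101.8 normalized counts with siNC and 260.6 and 315.7 with siPHF13 (log2 fold change 1.28 ± 0.21). *CLDN6*, known from embryonic epithelia, went from 7.588 and 19.82 to 159.1 and 204.2 (3.76 ± 0.36), and *CLDN11* and *CLDN9* also started under 40. The number higher was 4 without siControl replicate 2 or either siPHF13 library, and the median was -0.08 without siPHF13 replicate 1. The tricellular junction receptor *LSR* fell (-1.02 ± 0.12). Of 18 desmosome and hemidesmosome genes 4 were lower (22.2%), led by *DSP*, desmoplakin (1711 and 1757 against 751.0 and 784.2, -1.17 ± 0.10), with *DSC2*, while *PERP* (18590 and 18800 against 33870 and 34550, 0.87 ± 0.07) and *PKP1* rose. Cadherins and related genes were called in both directions (4 higher and 6 lower of 23). There, *CELSR3*, a cadherin of planar polarity, rose (831.8 and 904.6 against 1979 and 2050), and without siPHF13 replicate 2 the 4 became 2.

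Metallothioneins rose as a family. These small cysteine-rich proteins bind zinc and copper and buffer heavy metals, and their genes lie side by side on chromosome 16. *MT1A* had 528.3 and 534.3 normalized counts with siNC and 1501 and 1622 with siPHF13 (log2 fold change 1.55 ± 0.09, limma adjusted p = 1.94e-08). *MT1E* had 1438 and 1489 against 3484 and 3650 (1.28 ± 0.08), and *MT1X* 316.8 and 416.3 against 799.7 and 891.7 (1.22 ± 0.12). The low *MT1M* (23.71 and 30.63 against 125.3 and 123.3) and *MT1F* (1.897 and 15.32 against 31.83 and 27.62) made 5 of 6 measured members called higher (83.3%) and 0 lower. *MT2A*, the most abundant, had 21190 and 20620 against 27740 and 26580, a log2 fold change of 0.38 that missed the fold threshold. The genes are near-identical copies, so how reads were shared between them is uncertain. *MTF1*, the zinc-sensing factor that binds metallothionein promoters, was looked up afterwards and was called higher (1618 and 1710 against 2797 and 2862, 0.77 ± 0.08), whereas the zinc exporter *SLC30A1*, also under its control, had a log2 fold change of -0.11. With TGFβ the median of the 6 was 0.91, against 1.42 without. The 250 bases before the start of *MT1X*, plus strand of chr16:56682220-56682469 (GRCh38.p14), are given because the core of the metal response element, TGCACNC or TGCGCNC on either strand, stands there 4 times, in capitals:
MT1X: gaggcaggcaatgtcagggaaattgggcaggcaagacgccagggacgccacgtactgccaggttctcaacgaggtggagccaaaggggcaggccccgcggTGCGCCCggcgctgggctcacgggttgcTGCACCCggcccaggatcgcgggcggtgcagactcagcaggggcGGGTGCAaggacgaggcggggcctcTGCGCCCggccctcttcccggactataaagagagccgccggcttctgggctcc
At least 1 such core stood in 29.3% of all promoters in the reference, but 4 or more in 0.593%. The promoter of *MT2A* held 8. Over all genes the core was present in 37.0% of promoters of genes called higher, 39.9% of those called lower and 39.3% of the rest.

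Lysosomal genes were called higher more often than lower, and matrix genes were called in both directions. Of 79 genes of the lysosome and its proton pump 12 were higher (15.2%) and 4 lower (5.06%), with a small median of 0.11. The rises included the alpha-glucosidase *GAA* (log2 fold change 0.92 ± 0.11) and the calcium channel *MCOLN1* (0.87 ± 0.09). The steepest fall there was *CTSS*, cathepsin S, a protease of antigen processing (1560 and 1527 against 282.5 and 311.7, -2.38 ± 0.10). In the matrix, 7 of 37 glycoproteins and proteoglycans were higher (18.9%) and 4 lower (10.8%), the latter 2 without siPHF13 replicate 1, and the median of 0.12 became -0.03 without siPHF13 replicate 2 and 0.01 without siControl replicate 1. *TGFBI*, a secreted adhesion protein, had 24940 and 25060 against 52830 and 57800 (1.14 ± 0.07), and *CTGF*, a matricellular growth factor, 6103 and 5707 against 12600 and 11140 (1.01 ± 0.07). The transmembrane proteoglycan *CSPG4* fell (425.9 and 480.2 against 137.3 and 102.6, -1.92 ± 0.17). Collagens moved in both directions, with 5 higher and 8 lower of 26 (19.2% and 30.8%) and a median of -0.45. The fibril-forming *COL5A1* rose (258.9 and 221.6 against 645.5 and 694.5) and *COL13A1* with it, while the basement membrane chains *COL4A1* (173.6 and 174.8 against 49.73 and 52.28) and *COL4A5* and the fibril-associated *COL16A1* (279.8 and 266.7 against 48.74 and 72.01) fell. Metalloproteases were likewise divided, 9 higher and 7 lower of 36. *ADAM19* (1619 and 1565 against 4634 and 4912, 1.58 ± 0.07), *ADAMTS15* (3006 and 3136 against 7684 and 8165, 1.37 ± 0.07) and *ADAMTS10* rose, and *ADAM32* (183.1 and 198.2 against 40.78 and 34.53), *MMP15* and *MMP28* fell. Of 17 genes of the insulin-like growth factor axis 4 were higher (23.5%), among them the ligand *IGF2* (2081 and 1944 against 4311 and 4352), its carrier *IGFBP3* and the clearance receptor *IGF2R*, and the insulin receptor *INSR* was lower, a call lost without siControl replicate 2 or siPHF13 replicate 2.

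**Figure D2:**
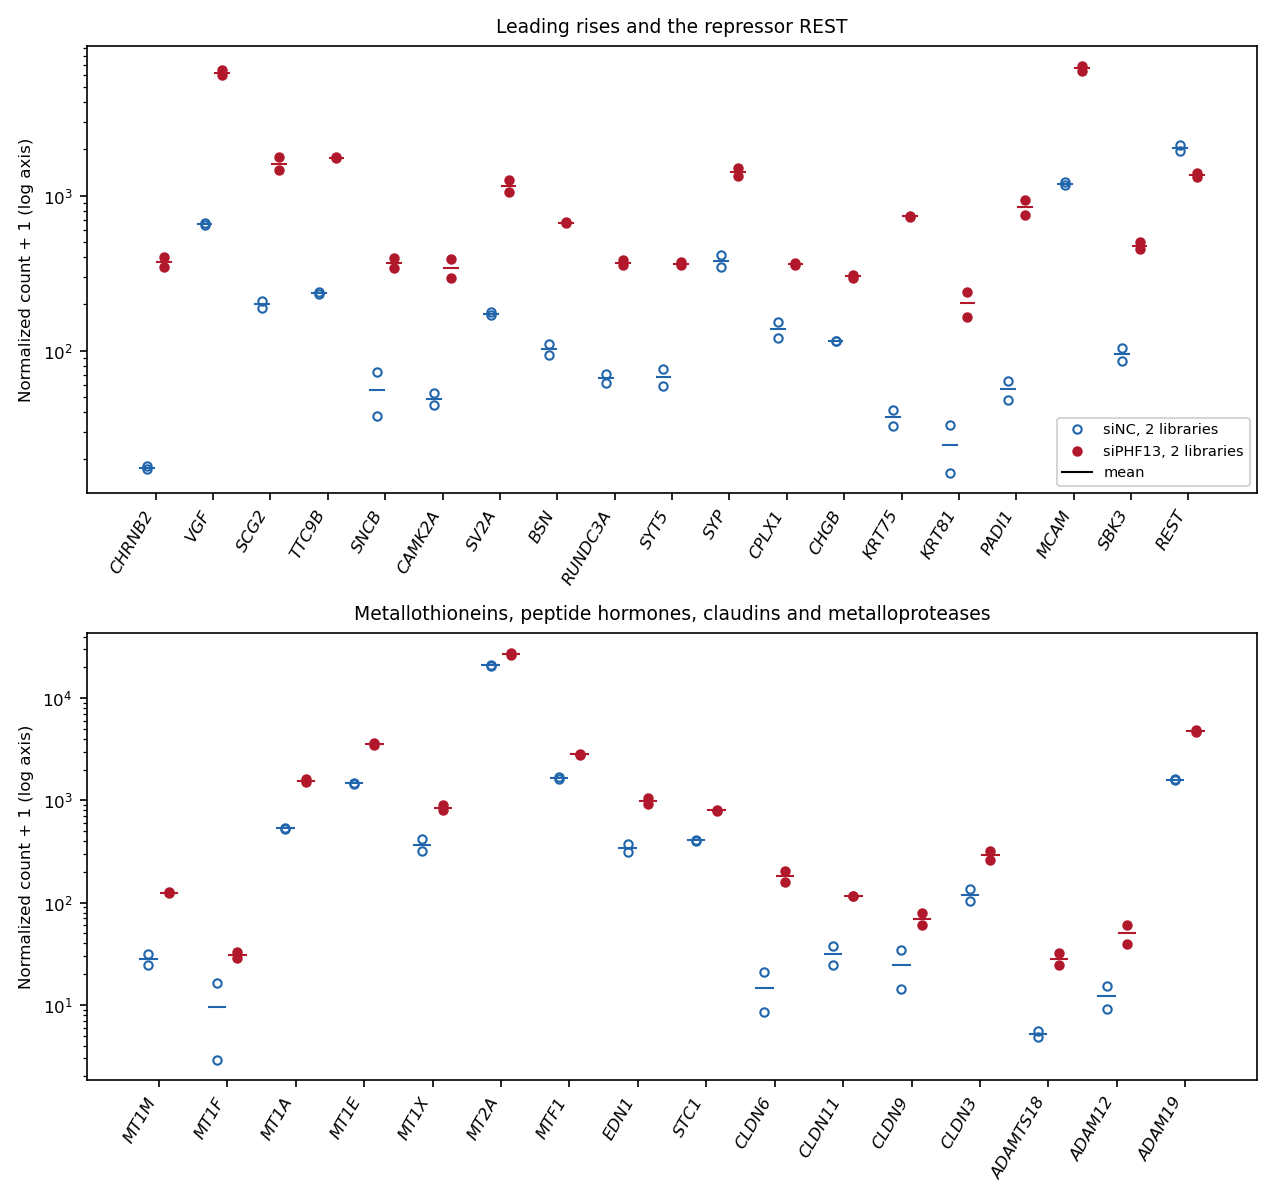
Normalized count plus 1 on a log axis for single libraries of siNC (open blue) and siPHF13 (filled red) cells without TGFβ, with a line at the mean of the 2. In the upper panel *REST* is the only gene with its siPHF13 values below its siNC values, and in the lower panel *MT2A* shows the smallest gap among the metallothioneins.

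Genes of the NF-kB pathway fell together. NF-kB dimers are held in the cytoplasm by inhibitor proteins, and once released they switch on their own inhibitors, chemokines and survival genes. Of 24 measured subunits and feedback genes 14 were called lower (58.3%) and 0 higher, with a list median of -0.65, against -9e-04 for all genes. The inhibitor *NFKBIA* had 11470 and 11860 normalized counts with siNC and 3548 and 4588 with siPHF13 (log2 fold change -1.53 ± 0.11, limma adjusted p = 1.42e-07). *TNFAIP3*, the ubiquitin-editing brake A20, had 2863 and 2865 against 928.0 and 1098 (-1.50 ± 0.10). *BIRC3*, a ubiquitin ligase that blocks cell death, had 42380 and 43980 against 12340 and 14080 (-1.71 ± 0.07). The adaptor *TNIP1* (-1.64 ± 0.08) and the adhesion receptor *ICAM1* (92790 and 95530 against 31290 and 35580) behaved alike, as did the subunit *NFKB2* (10900 and 11520 against 5348 and 5773). The subunit genes *RELA* (-0.30) and *NFKB1* (-0.34) were inside the fold threshold. With any 1 library left out the number lower was between 12 and 14 and the number higher at most 1, and with TGFβ 11 of the 24 were called lower.

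The letters GGGA and TTTCC with any base between them, a strict form of the NF-kB site, were searched on both strands of the same windows, after the fall of the list had been seen. They stood in 24 of 1084 promoters of genes called lower (2.21%), in 1 of 819 called higher (0.122%), in 40 of 8745 not called (0.457%) and in 0.579% of all promoters in the reference. Besides *NFKBIA* and *TNFAIP3*, the 24 included those of *CXCL2*, *CXCL3*, *IL32*, *TNFRSF9* and *LTB*, and also *GBP4*, *IFIH1*, *OAS3* and *TAP1* of the interferon and antigen-presentation lists. The single higher gene was the chemokine *CXCL5*. The 250 bases before the start of 3 of these genes are printed as examples, from minus strand chr14:35404750-35404999, plus strand chr6:137867009-137867258 and minus strand chr4:74038690-74038939 of GRCh38.p14, with the match in capitals:
NFKBIA: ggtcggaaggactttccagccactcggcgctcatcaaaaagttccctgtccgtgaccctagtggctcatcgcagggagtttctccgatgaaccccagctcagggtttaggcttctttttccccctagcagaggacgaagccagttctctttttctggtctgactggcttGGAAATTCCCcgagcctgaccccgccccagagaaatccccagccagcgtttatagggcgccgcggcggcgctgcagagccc
TNFAIP3: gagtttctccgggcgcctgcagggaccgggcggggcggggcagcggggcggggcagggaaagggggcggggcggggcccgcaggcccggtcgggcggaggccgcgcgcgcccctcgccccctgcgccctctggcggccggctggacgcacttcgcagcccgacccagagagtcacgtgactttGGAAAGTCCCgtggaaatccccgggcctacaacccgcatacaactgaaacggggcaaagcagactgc
CXCL3: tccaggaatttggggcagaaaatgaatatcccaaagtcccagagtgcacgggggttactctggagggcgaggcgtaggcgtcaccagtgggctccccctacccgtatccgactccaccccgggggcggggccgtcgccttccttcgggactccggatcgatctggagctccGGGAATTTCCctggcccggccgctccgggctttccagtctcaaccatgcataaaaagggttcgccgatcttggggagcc

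Genes of cytokines and their receptors were also called lower more often than higher. Whether these falls share a cause with those of the NF-kB genes was not tested. Of 18 chemokines and receptors 7 fell (38.9%) and 2 rose (11.1%). *CCL5*, which attracts T cells, had 1120 and 1305 normalized counts with siNC and 277.5 and 258.4 with siPHF13 (log2 fold change -2.17 ± 0.14). *CXCL3* and *CXCL2*, which attract neutrophils, had 109.1 and 119.8 against 23.87 and 44.39, and 718.9 and 833.4 against 285.5 and 390.6. The membrane-bound *CX3CL1* (18180 and 19730 against 7687 and 10640, -1.07 ± 0.12) and *CXCL16* fell as well, while the related *CXCL5* was higher (94.85 and 147.8 against 193.0 and 241.7), a call lost without siControl replicate 1 or siPHF13 replicate 2. Interleukins and their receptors were lower in 16 of 42 (38.1%) and higher in 4 (9.52%). *IL4R*, the receptor chain of interleukins 4 and 13, had 4301 and 4364 against 1162 and 1231 (-1.86 ± 0.07, limma adjusted p = 6.59e-10), and *IL15*, which sustains lymphocytes, 174.5 and 152.3 against 42.77 and 30.58. Against them stood *IL6R*, the interleukin 6 receptor (2171 and 2216 against 6305 and 6117), and *IL11* (181.2 and 180.2 against 436.7 and 419.2). Without siPHF13 replicate 1 the 4 became 2. The TNF superfamily had 10 of 27 lower (37.0%) and 1 higher, or 2 higher without siControl replicate 2 or siPHF13 replicate 1. Death and co-stimulatory receptors led it, with *TNFRSF9* (205.8 and 195.5 against 46.75 and 38.47), *FAS* (1578 and 1616 against 569.9 and 587.9) and *CD40* (1677 and 1593 against 560.0 and 520.8), and the ligand *TNFSF10*, TRAIL, fell with them. Antigen presentation by MHC class I was lower in 13 of 26 genes (50%), from the heavy chains *HLA-F* and *HLA-B* (7683 and 7796 against 3930 and 3816) to the peptide transporters *TAP1* and *TAP2* and the trimming enzymes *ERAP1* and *ERAP2* (5080 and 5164 against 2234 and 2541). HLA genes are polymorphic and alike, so reads may be split between them. The lymphocyte activation marker *CD69*, a C-type lectin, was among the 15 largest falls (1358 and 1295 against 226.8 and 218.0, -2.57 ± 0.10), and the pattern receptors *TLR2* and *TLR4* and the inflammasome genes *CASP1* and *PYCARD* were among 6 of 29 called lower in their list (20.7%).

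Homeobox genes and some other developmental transcription factors were lower. Homeobox factors specify position and cell fate in the embryo, and many lie in polycomb-marked chromatin in other cells. Of 96 measured, 28 were lower (29.2%) and 3 higher (3.12%), with a median of -0.40. *LMX1B*, a factor of limb and midbrain patterning, had 179.3 and 199.1 normalized counts with siNC and 38.79 and 25.65 with siPHF13 (log2 fold change -2.54 ± 0.26). *HOXB13*, of the posterior body axis, had 533.0 and 601.9 against 229.8 and 220.0 (-1.33 ± 0.15), and the HOX cofactor *PBX4* 287.4 and 329.8 against 133.3 and 104.6 (-1.38 ± 0.18). The gut and pancreas factors *PDX1* (96.74 and 155.9 against 26.86 and 57.21) and *CDX2* (115.7 and 85.60 against 41.78 and 57.21) were lower at small counts. With 1 library left out the number lower was between 21 and 28. Of the 3 homeobox genes that rose, *NKX6-2*, a factor of the neural tube, went from 283.6 and 246.9 to 1324 and 1078 (2.17 ± 0.15). Among 22 factors linked to the squamous and classical subtypes of pancreatic cancer 7 were lower (31.8%) and 0 higher: *FOXA1*, *SNAI1*, *PDX1*, *KLF5*, *ZEB2*, *GATA6* and *SOX9*. They belong to both sides of that division, since *GATA6* (235.2 and 244.2 against 115.4 and 133.2) is a classical factor and *SNAI1* (501.7 and 564.9 against 155.2 and 180.5, -1.66 ± 0.16) a mesenchymal one. The number lower was 4 without either siControl library or siPHF13 replicate 1, and without siControl replicate 2 the number higher was 1. The list of forkhead, SOX, T-box and GATA genes stayed near the background, with 3 higher (5.45%) and 6 lower (10.9%) of 55, the latter 3 without siControl replicate 2 or siPHF13 replicate 1. Of 18 Krueppel-like and SP factors 5 fell (27.8%), among them *KLF12*, *KLF9* and *KLF11*, and 1 rose. The number lower was 3 without siControl replicate 1. Nuclear receptors were called in both directions, with 4 higher and 4 lower of 28 (14.3% each). The lipid sensor *PPARG* rose (2770 and 3051 against 6045 and 6369, 1.09 ± 0.07). *NR5A2*, a factor of pancreatic exocrine cells, the thyroid receptor *THRA* and the vitamin D receptor *VDR* fell. So did *RXRA*, a partner of *THRA* and *VDR* (1591 and 1655 against 819.6 and 817.8, -0.99 ± 0.08).

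Developmental signalling pathways differed in direction. In the Hedgehog pathway, where the receptor PTCH1 restrains SMO and GLI factors carry the signal, 5 of 11 genes were lower (45.5%). *PTCH1*, itself a target of the pathway, had 370.9 and 421.7 normalized counts with siNC and 196.9 and 212.1 with siPHF13 (log2 fold change -0.95 ± 0.18), and the co-receptor *CDON* 439.1 and 369.4 against 147.2 and 163.8 (-1.37 ± 0.15). *SMO* (58.80 and 45.05 against 11.94 and 7.892), *GLI1* (89.16 and 131.5 against 54.71 and 36.50) and *GLI3* were low throughout. The inhibitor *SUFU* was the gene that rose (474.2 and 520.8 against 717.1 and 849.3), but not without siPHF13 replicate 2. Wnt genes were lower in 10 of 40 (25%), with the nuclear effector *LEF1* (191.6 and 173.9 against 76.59 and 45.38), the receptor *FZD1* and the ligand *WNT9A* (750.2 and 808.2 against 328.2 and 319.6). The 4 that rose included 3 secreted or membrane antagonists: *DKK3* (5880 and 5745 against 15510 and 16660, 1.47 ± 0.06), *SFRP1* (4456 and 4744 against 8403 and 9145) and *KREMEN2*. The other was the ligand *WNT3*, and the antagonists *KREMEN1* and *NKD2* were among the 10 that fell. In the Notch pathway, with 3 of 29 genes higher and 5 lower, the ligand *DLL1* was among the largest falls (160.3 and 190.1 against 29.84 and 28.61, -2.54 ± 0.25), and the receptors *NOTCH3* and *NOTCH4* rose at low counts. Without siControl replicate 2 the 3 were 5. Of 58 genes of TGFβ and BMP signalling 9 were higher (15.5%) and 8 lower (13.8%). The ligand *TGFB3* (474.2 and 529.8 against 158.1 and 178.5) and the receptors *TGFBR1* (1587 and 1662 against 896.2 and 819.7) and *TGFBR3* fell, and the BMP antagonist *NOG* (448.6 and 372.1 against 1310 and 1011) and the latency protein *LTBP1* (3175 and 3352 against 7985 and 8669) rose. Among guidance molecules *SEMA7A* rose (631.7 and 568.5 against 2422 and 2558, 2.05 ± 0.08), while 8 of 35 semaphorins, plexins and related genes fell (22.9%), and so did 5 of 19 ephrins and Eph receptors (26.3%), such as *EFNA1* and *EPHA2* (31130 and 30120 against 16860 and 17080).

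**Figure D3:**
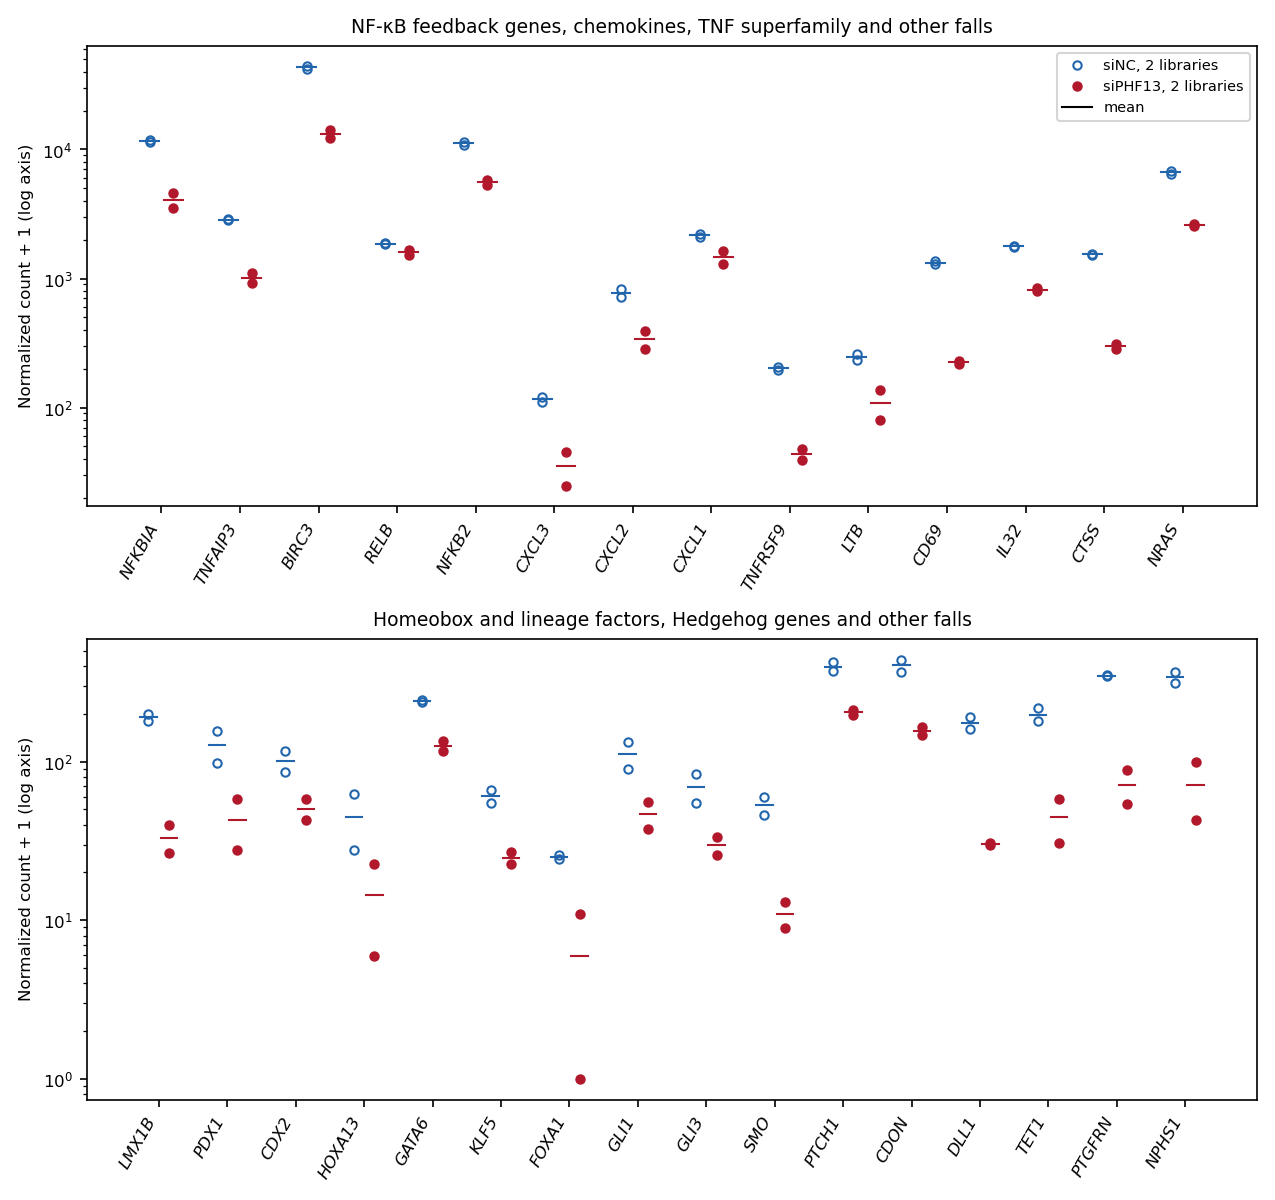
Normalized count plus 1 on a log axis for single libraries of siNC (open blue) and siPHF13 (filled red) cells without TGFβ, with a line at the mean of the 2. All genes drawn have both siPHF13 values under both siNC values (groups do not overlap in 77.3% of all genes), with the smallest gaps for *RELB* and *CXCL1*, which were not called, and the transcription factors and Hedgehog genes of the lower panel sit at small counts.

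Some single genes of growth control were lower, among them *NRAS* and *CCND1*. *NRAS*, which encodes a GTPase at the head of the ERK cascade, was looked up after other results were known. *NRAS* had 6460 and 6825 normalized counts with siNC and 2572 and 2657 with siPHF13 (log2 fold change -1.34 ± 0.06, limma adjusted p = 3.62e-09). Its list, receptor tyrosine phosphatases and RAS regulators, stayed under 1.5 times the background shares, with 4 higher (11.1%) and 5 lower (13.9%) of 36. Of 36 ERK feedback and immediate early genes 6 fell (16.7%) and 1 rose, or 2 to 3 with any 1 library left out. The ETS factor *ETV4* (812.8 and 778.5 against 347.1 and 299.9, -1.30 ± 0.11) and the phosphatase *DUSP7* (1765 and 1646 against 824.6 and 901.6) were lower, and the ERK inhibitor *SPRY2* was higher (1562 and 1434 against 2631 and 2432). Cyclin D1, *CCND1*, which drives cells out of G1, dropped from 31580 and 31160 to 15930 and 15200 (-1.01 ± 0.06), and with *CCND2*, *CDK6* and *TFDP2* it made 4 of the 5 genes lower of 28 in the G1 list. The fifth was the CDK inhibitor *CDKN1A*, p21 (9884 and 9137 against 4686 and 4492, -1.05 ± 0.07). In the Hippo pathway, where kinases keep YAP out of the nucleus, 6 of 37 genes rose and 6 fell. The tumor suppressor *NF2* (7400 and 7404 against 3528 and 3216, -1.14 ± 0.06) and the kinase adaptor *MOB1A* fell, and the kinase *LATS2* (785.3 and 825.3 against 1944 and 2191) and the YAP target *ANKRD1* rose. After the correction for GC content and length 3 genes of the list were called lower. Of 22 genes of the BCL2 family 3 were higher (13.6%) and 2 lower (9.09%). The survival gene *BCL2L1* (7473 and 7207 against 14660 and 14650, 1.00 ± 0.07) and the cell death gene *BMF* (626.9 and 544.2 against 1003 and 1109) rose, and *BCL2L2* fell.

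Genes of lipid synthesis and NRF2 targets were lower more often than higher. In cholesterol synthesis 7 of 26 genes were lower (26.9%) and 0 higher, with a median of -0.34. *SQLE*, squalene epoxidase, had 7424 and 7641 normalized counts with siNC and 2571 and 2793 with siPHF13 (log2 fold change -1.49 ± 0.07, limma adjusted p = 2.31e-09). *MSMO1*, a sterol oxidase, had 7535 and 8197 against 2739 and 3188 (-1.41 ± 0.11), and *HMGCS1*, which feeds the pathway, 6568 and 7051 against 3072 and 3240 (-1.11 ± 0.08). The calls fell on the late and early steps alike. Fatty acid genes were lower in 7 of 27 (25.9%), 3 of them elongases: *ELOVL6* (301.6 and 383.8 against 74.60 and 115.4), *ELOVL7* and *ELOVL5* (21090 and 22280 against 11320 and 11690). Targets of NRF2, the factor that answers oxidative stress, were lower in 11 of 34 (32.4%) and higher in 2. The cystine importer *SLC7A11* had 4790 and 4548 against 2003 and 1223 (-1.58 ± 0.15) and the pentose phosphate enzyme *PGD* 10460 and 10820 against 5005 and 5070 (-1.08 ± 0.06). Here the siPHF13 libraries differed from each other, with *PIR* at 410.8 and 207.2 and *SRXN1* at 96.48 and 38.47. Without siPHF13 replicate 1 the number lower was 17, and without siPHF13 replicate 2 it was 6. The targets *ABCC3*, a drug exporter, and *FTL*, ferritin light chain (70570 and 69660 against 122200 and 107800), were higher, the latter not after the GC and length correction. Neighbouring lists did not share this: fatty acid oxidation and peroxisome genes had 1 higher and 2 lower of 46, and glutathione transferases and peroxidases 4 and 3 of 44. Amino acid stress genes under ATF4 were divided, with 6 of 45 higher, such as *NUPR1* (518.8 and 543.3 against 1410 and 1271) and *PCK2*, and 5 lower, such as *TRIB3*. Of 33 hypoxia genes 4 rose and 2 fell. The collagen crosslinker *LOX* (110.0 and 133.3 against 446.6 and 354.1) rose and the oxygen-regulated factor *EPAS1* (7692 and 7533 against 3661 and 4088) fell, but the number higher was 2 without siPHF13 replicate 1, and the number lower 1 with any 1 library left out.

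Transport and trafficking genes gave smaller groups of falls. Of 37 golgins and long coiled-coil proteins of the Golgi and centrosome 10 were lower (27.0%) and 1 higher. The centrosomal anchor *NIN* had 2915 and 2818 normalized counts with siNC and 975.8 and 1042 with siPHF13 (log2 fold change -1.51 ± 0.09), the Golgi tether *GOLGB1* 8986 and 9585 against 4722 and 4781 (-0.97 ± 0.06) and *GOLGA4* 8076 and 7596 against 4340 and 4690 (-0.80 ± 0.06). Such genes have long transcripts, and after the correction for GC content and length 6 were called lower and the median moved from -0.43 to -0.30. ABC transporters were lower in 7 of 28 (25%), and P-type ATPases in 5 of 28 (17.9%), led by the calcium pump *ATP2B4* (9134 and 9404 against 4390 and 4661). Among chloride and TRP channels the calcium-activated *ANO9* fell from 10780 and 10860 to 3127 and 3757 (-1.66 ± 0.08), and the cold-sensing *TRPM8* rose at low counts. The actin linker *RDX* of the ankyrin and band 4.1 list fell (12810 and 13110 against 6403 and 6472). The adhesion molecule *MCAM*, a receptor of endothelial and melanoma cells, was the most abundant of the 15 largest rises (1175 and 1217 against 6348 and 6867, 2.46 ± 0.07). The DNA demethylase *TET1* was among the 15 largest falls (216.3 and 178.4 against 29.84 and 57.21, -2.22 ± 0.28).

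**Figure D4:**
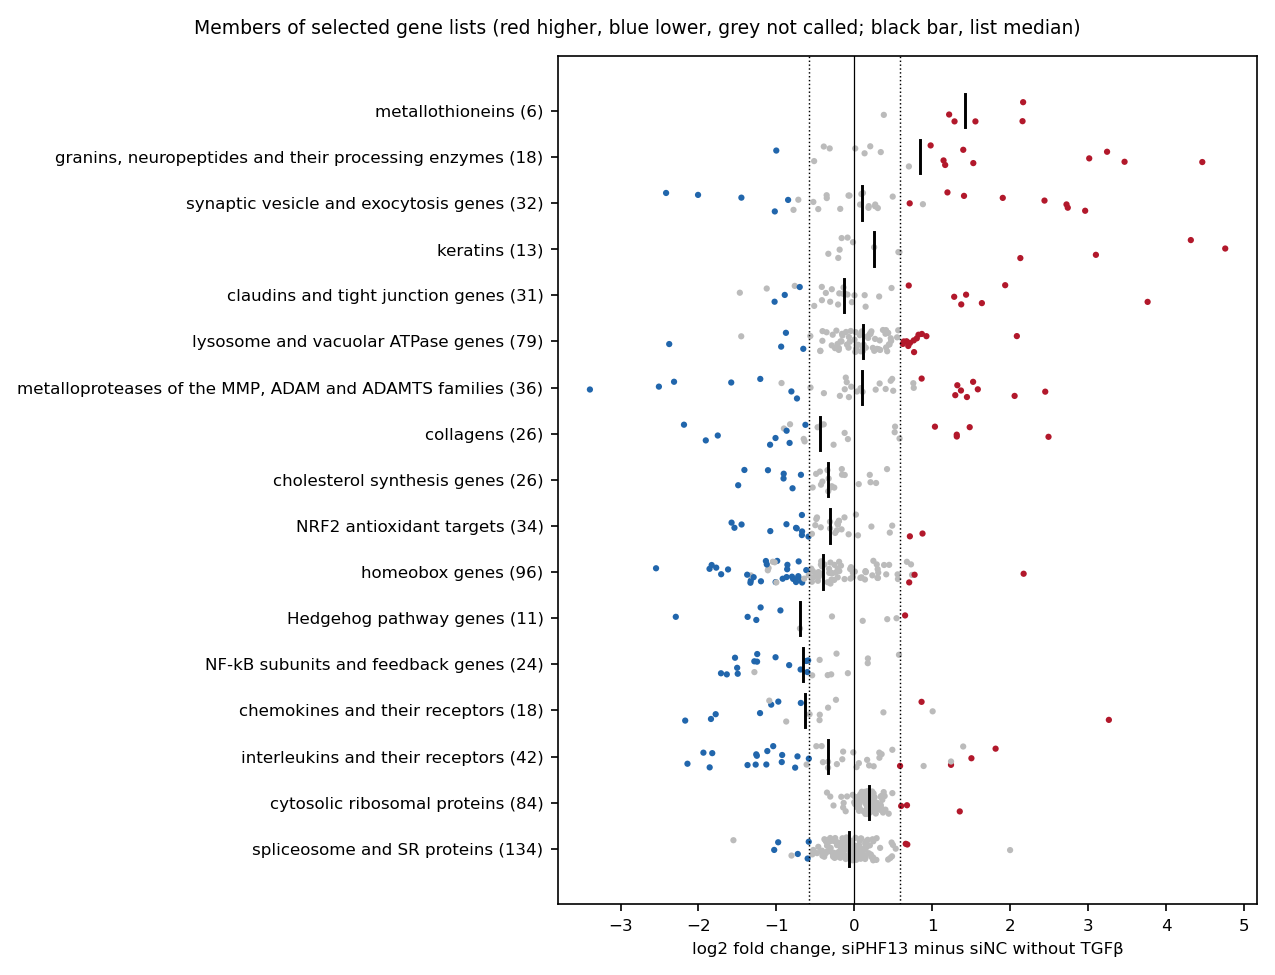
Log2 fold change of siPHF13 minus siNC without TGFβ for each measured member of selected lists (points, spread vertically at random), red where called higher, blue where called lower and grey otherwise, with a black bar at the list median and dotted lines at the fold threshold. Homeobox, NF-kB and Hedgehog genes lie mostly left of 0, metallothioneins all lie right of it, and ribosomal and splicing genes form narrow clouds near 0.

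Few genes of several core machineries were called. Of 134 spliceosome genes 2 were called higher and 5 lower (1.49% and 3.73%), of 76 ribosome biogenesis genes 1 and 1, of 61 nuclear pore and transport genes 1 and 2, and of 80 nuclear-encoded subunits of oxidative phosphorylation 1 and 4. Cytosolic ribosomal proteins, which build the ribosome, were called in 3 of 84, but 74 of them had a log2 fold change above 0 and the median was 0.19. For 77 mitochondrial ribosomal proteins the median was 0.21, with 4 called higher and 1 lower. Without siPHF13 replicate 1 the medians were 0.098 and 0.127. Both are short transcripts, and after the correction for GC content and length these medians were 0.13 and 0.13. DNA replication genes (3 higher and 2 lower of 56), homologous recombination and Fanconi genes (0 and 1 of 45) and mitotic kinases and spindle genes (1 and 6 of 59) were at or under the background shares. With any 1 library left out, no list named in these sentences had more than 6 calls in a direction. Other basic lists were nearer the background, with 12 higher and 6 lower of 126 genes of RNA polymerase II, Mediator and elongation (9.52% and 4.76%), 3 and 1 of 28 glycolysis genes and 3 and 3 of 31 genes of the tricarboxylic acid cycle. The 3 glycolysis genes higher became 1 without siControl replicate 2 or siPHF13 replicate 1, and the 3 cycle genes lower became 1 without siControl replicate 2 or siPHF13 replicate 2. Regulators related to PHF13 in function had few calls too. Of 31 PHD finger genes 2 were higher, *PHF5A* and *ING4*, and 3 lower, *PHF13* itself, *PYGO1* and *PHF11*. The number lower was 1 without siControl replicate 1. Of 29 writers, erasers and readers of H3K4 methylation 2 were higher and 1 lower, and of 35 polycomb genes 1 and 3. Zinc finger genes named ZNF, mostly repressors, were called higher in 39 of 446 (8.74%) and lower in 16 (3.59%), the latter 10 without siPHF13 replicate 2. After the correction for GC content and length 49 were called higher and 10 lower.

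A scan of all families that share the letters of their symbol, with at least 10 genes tested, gave the same names in part. The highest shares of higher genes were in the stems CLDN (7 of 14), ADAMTS (4 of 10), KRT (4 of 13), MARCH (3 of 10), and ADAM and INTS (3 of 11 each). Claudins, metalloproteases and keratins were described above, MARCH genes encode membrane-bound ubiquitin ligases, and INTS genes encode the integrator complex that processes small nuclear RNAs. The highest shares of lower genes were in UNC (4 of 10), SEMA (5 of 14), IL (14 of 41), and MTMR, PIK, PPM and CDH (4 of 12 each) and TNFRSF (5 of 15). Some of these stems also had genes called the other way. In ADAMTS and ADAM 2 each were lower, and in CLDN and MARCH 1 each. In IL 5 were higher, in CDH 2 and in SEMA 1.

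Called genes also differed in their sequence and position. Transcripts of genes called higher had a median GC content of 54.15% and a median length of 3386 bases, against 47.55% and 4360 bases for genes called lower and 47.95% and 3854 bases for the rest. The share called higher climbed from 4.11% in the lowest of 5 equal groups of genes by GC content to 12.8% in the highest, while the share called lower went from 11.2% to 9.67%. Along the transcript length the share called lower climbed from 7.15% in the shortest of 5 such groups to 13.1% in the longest, and the share called higher went from 10.2% to 5.94%. Abundant genes were called less often in either direction. Chromosome 19, which is rich in GC, had 126 genes higher and 50 lower of 998 (12.6% and 5.01%), and chromosome 16 had 72 and 48 of 623. Chromosome 1, home of *PHF13*, leaned the other way with 94 higher and 176 lower of 1330. When each library was corrected for GC content and length, 1080 genes were called higher and 1267 lower, of which 942 and 1194 were among the calls without the correction. The part of GC content and length in the gene lists other than those corrected values was not tested, nor was that of level.

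**Figure D5:**
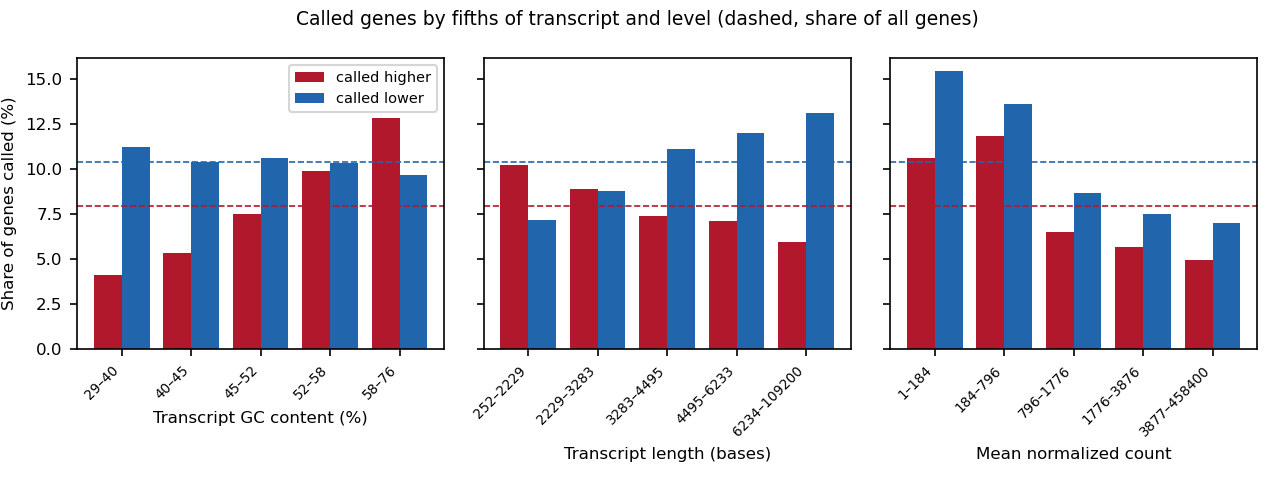
Share of genes called higher (red) and lower (blue) in siPHF13 against siNC cells without TGFβ, in percent, in 5 equal groups of genes by transcript GC content, transcript length and mean normalized count, with the share of all genes dashed. The red bars climb with GC content from 4.11% to 12.8%, the blue bars climb with length from 7.15% to 13.1%, and both are lowest among the most abundant genes.

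For few genes was the effect of depletion shown to differ with TGFβ. The effect of depletion was compared with that in the 4 TGFβ-treated libraries, where 20.5% of genes were called (8.81% higher and 11.7% lower). Of the 13307 genes 55 (0.413%) had a different effect at an adjusted p under 0.05 (1259 at an unadjusted p under 0.05), and 25 of these were called without TGFβ. Of the 2448 called genes 625 were called without TGFβ only, and in 13 of these the difference itself passed. Several of the 25 rose on depletion alone and had a smaller log2 fold change in TGFβ-treated cells. *SIK1*, a stress-responsive kinase named here because its difference had the smallest p, measured 1018 and 958.7 normalized counts with siNC but 4398 and 4089 with siPHF13. After TGFβ the siNC libraries gave 4527 and 4454 and the siPHF13 libraries 7863 and 7663. Its log2 fold change on depletion was 2.10 without and 0.79 with TGFβ (adjusted p = 2.85e-05 for the difference, limma). *ADAM19* had 1.58 and 0.37, and *TGFBI*, *CTGF*, *LTBP2* and *COL5A1* also had the smaller value with TGFβ. In the opposite class, *COL1A1* (-0.83 and -1.72), *GOLGA4* (-0.80 and -1.70) and *GOLGB1* (-0.97 and -1.53) fell further with TGFβ. The comparison with TGFβ shares no library with that without it, and the list medians in the 2 were as follows: 0.84 without and 0.82 with TGFβ for granins and neuropeptides, -0.65 and -0.57 for NF-kB genes, -0.40 and -0.27 for homeobox genes and -0.34 and -0.36 for cholesterol synthesis. Other lists differed more, with -0.45 and -0.14 for collagens, 0.01 and 0.32 for DNA replication genes and -0.11 and 0.22 for mitotic genes. These differences between list medians were not tested.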

How the data were processed

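Poly(A) RNA of siNC and siPHF13 Panc-1 cells, with and without TGFβ, was sequenced in 2 libraries per group as paired reads of 150 bases. The values deposited by the authors are a signal: read counts per gene divided by a DESeq2 size factor. Per the labels, reads were trimmed with Trim Galore 0.4.1, aligned to hg19 with STAR 2.7.0 and counted with HTSeq 0.12.4. The annotation release and the strand setting are not given in the sources used here, so overlapping and antisense genes cannot be separated. The authors' comparison tables hold fold changes, p-values and group means and were not used.

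From these values log2(value + 1) was fitted for all 8 libraries with limma 3.58.1 in R 4.3.3 (empirical Bayes with a mean trend), with Benjamini-Hochberg adjustment over 13307 genes. A minimum of 10 in at least 2 libraries removed 0 genes. Calls needed an adjusted p below 0.05 together with a log2 fold change beyond 0.58 in size. The values were whole multiples of 1 read in all libraries (100% within 1e-06), so edgeR 4.0.16 and DESeq2 1.42.0 were run on the recovered reads as alternatives. They called 2437 and 2422 genes. The other alternatives were another pseudocount, filter, scaling or fold threshold, a replicate block, a correction for GC content and length, and leaving out each library. In simulated data for siPHF13 against siNC (13199 genes), 95 of 100 genes changed by 1 on the log2 scale and 100 of 100 changed by 2 were found, with 1 other gene called. The simulation gave all genes the same dispersion (spread between libraries), changed no gene with few reads and held no TGFβ effect. Recovery in the real data may therefore differ.

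The members and gene lists were chosen with earlier results of these data known. The pattern for cystatins in the protease inhibitor list was narrowed after it had matched an unrelated gene. Named genes were *PHF13*, the markers, the called genes with the 15 greatest rises and 15 greatest falls that averaged 100 or more over the 4 untreated libraries and did not overlap between groups, and for each list described in full up to 4 called members per direction with the largest absolute change, lower ones being allowed where fewer than 2 reached that mean. Genes named beyond this rule were chosen after their values were seen: *REST*, *RCOR1*, *SIN3A*, *MTF1*, *SLC30A1*, *NRAS*, *SIK1*, *SNAP25*, *INA*, *SYN1*, *SCAMP5*, *SCG3*, *SCG5*, *CRH*, *PCSK1N*, *STC1*, *CPLX1*, *KRT37*, *PADI3*, *MT1F*, *MT1M*, *MT2A*, *CLDN6*, *CLDN9*, *CLDN11*, *MMP28*, *INSR*, *CXCL1*, *CXCL3*, *LTB*, *IL32*, *NFKB1*, *NFKB2*, *RELA*, *RELB*, *ICAM1*, *IFIH1*, *OAS3*, *TAP1*, *TAP2*, *ERAP1*, *SMO*, *GLI1*, *GLI3*, *PDX1*, *CDX2*, *HOXA13*, *KLF5*, *FOXA1*, *ZEB2*, *CCND2*, *PHF5A*, *PHF11*, *PYGO1* and *ING4*. *KREMEN1*, *NKD2* and *WNT3* were also named after their values were seen. The promoter motifs were chosen in the same way. GC content and length came from the GENCODE annotation of GRCh37 (13136 genes, 171 without), and promoters from RefSeq. A few genes and 2 gene lists are not reported here.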

Additional observations from a re-analysis of the deposited data

Results flagged for a closer look

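For 15 named genes the effect of PHF13 depletion differed between cells without and with TGFβ by the interaction test of limma, at an adjusted p under 0.05. Values are the log2 fold change without minus that with TGFβ. The matrix and growth factor genes *ADAM19* (1.21), *COL5A1* (1.01), *LTBP2* (0.68), *CTGF* (0.66), *ADAMTS15* (0.64) and *TGFBI* (0.61) rose more without TGFβ. So did the kinase *SIK1* (1.31), the thrombomodulin gene *THBD* (0.89), the cell death gene *BMF* (0.80) and the Eph receptor *EPHB2* (0.79). *COL1A1* (0.89), *GOLGA4* (0.91), *GOLGB1* (0.56) and *CD69* (0.71) fell less without TGFβ. *KRT19* (-0.50) had the smaller log2 fold change without TGFβ. Groups of 2 libraries were too small for a check of single libraries that stand apart.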

How the results depend on the processing

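With 1058 genes higher and 1390 lower, other scalings, pseudocounts, filters and tools kept both counts within 1.5 times. The fold threshold set the numbers: without it 3072 genes were higher and 3236 lower, and at a threshold of 1 they were 409 and 562. After the correction for GC content and length they were 1080 and 1267. Leaving out each library gave 945 to 1004 higher and 1224 to 1364 lower, where the lone library of a group was assumed to vary like the other groups. The labels number the replicates and state no pairing. The deviations of same-numbered siNC and siPHF13 libraries correlated at 0.024 over all genes and 0.072 over genes with a mean of at least 100. Over the latter genes the correlation was 0.271 between the 2 TGFβ groups and -0.252 between siPHF13 without and with TGFβ. With the replicate block 1053 genes were higher and 1385 lower. Of 5455 values of the 392 named genes under the alternatives 5312 kept their side of the thresholds, 137 lost the call, 6 gained it and 0 reversed. Of the 373 called, 313 kept the call in every alternative. Counts under about 30 per library, as for *SNAP25*, *SMO* or *MT1F* in some groups, gave wide errors. With 2 libraries per group, differences between conditions other than the largest may go undetected.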
